A study of Mus musculus with 230 samples.

Results

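The genes described here encode the protein parts of the cytosolic ribosome, the particle that translates most messenger RNAs of a cell. They were chosen by symbol alone: protein-coding mouse genes named Rpl or Rps with a number and, where present, an ending in a, x, l or p, together with Rpsa and Rplp0 to Rplp2. Kinases of ribosomal protein S6 and pseudogenes were left out. The rule found 81 genes among 43346 gene identifiers, 50 of the large (60S) subunit and 31 of the small (40S) subunit. They were measured in 230 RNA sequencing libraries of bulk tissue from 45 male C57BL/6J mice, each trained to self-administer cocaine or saline. Tissue was taken from 6 places. They were the basolateral part of the amygdala (BLA, 38 libraries), the caudate putamen or dorsal striatum (CPu, 42), the accumbens nucleus (NAc, 39), prefrontal cortex (PFC, 41), the ventral part of the hippocampus (vHipp, 39) and the midbrain's ventral tegmental area (VTA, 31). S24 (saline, 8 mice) and C24 (cocaine, 8 mice) were sampled at 24 h of withdrawal. The other groups were sampled 30 d into withdrawal, with an injection given 1 h earlier. After saline training the injection was saline in SS (8 mice) and cocaine in SC (8 mice). After cocaine training it was saline in CS (6 mice) and cocaine in CC (7 mice). A library is named by region and mouse number, as in BLA-011, and the same number in several regions was taken as 1 mouse.

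Each ribosome holds 1 copy of nearly every one of these proteins, and their genes are transcribed in close proportion to each other in most tissues. Their messenger RNAs as a class begin with a C followed by a run of pyrimidines, the 5′ terminal oligopyrimidine (TOP) tract, through which the mTOR pathway controls their translation. In neurons, ribosomes occur in the cell body and in dendrites and axons, where local protein synthesis takes part in synaptic plasticity. A few members have a paralog with a narrow tissue range: Rpl3l is a form of Rpl3 of heart and skeletal muscle, and Rpl10l and Rpl39l are forms of testis.

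Library totals ran from 11866570 to 42135683 counts, with a median of 23164567. The region labels went with the markers tested for them. Slc6a3, the dopamine transporter, had a median of 1609 CPM (counts scaled to a common library total) in the VTA and of 0.953 or less in the other regions, and the striatal signalling gene Ppp1r1b had medians of 1855 in the CPu and 1121 in the NAc against 184.6 or less elsewhere. Ribosomal protein genes have many processed copies in the genome. Of the 50-base stretches of a member's annotated exons, a median of 33.5% also occurred in another annotated gene, and over 50% did in 20 members. The 799 annotated ribosomal protein pseudogenes in the table together held 0.614% to 1.48% of the members' own reads. How reads that match several genes were counted is not given in the sources used here, so the level of a member with many copies is uncertain.

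Of the 81 members, 79 passed the filter on low counts in the comparison of regions, and 77 had a mean over 1 CPM. Rpl10l had no read in any library, and Rpl39l had 260 reads in all, in 136 libraries. The level of each member was taken as its median CPM over the 230 libraries per kilobase of its main coding transcript. Over the 77 members this level ran from 14.4 to 817 CPM per kb with a median of 179.7, and 65 of them lay within 2-fold of that median. Rplp1, which encodes an acidic protein of the ribosomal stalk, stood highest at 817 CPM per kb, ahead of Rps29 at 461.9 and Rps15 at 429. The lowest of all 81 were Rpl10l at 0, Rpl39l at 0.0727 and Rpl3l at 0.387 CPM per kb. Rpl24, a large subunit gene that all cells use, had only 0.559 CPM per kb. Its principal transcript shared 71.5% of its length, on the same strand, with the annotated gene Gm28037, which itself had no counts, so the value listed for Rpl24 may not be its true level.

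The other paralogs among the members were present at low levels. Rps27l stood at 14.4 CPM per kb, near the lowest end of the 77 members, and Rpl36al at 44.4. Rps4l, which the annotation lists as a transcribed pseudogene and which therefore is not a member, stood at 18.1 CPM per kb. Rpl23a, at 14.45 CPM per kb, shared 55.4% of its transcript with Tlcd1 on the opposite strand. Such overlaps of over 40% of the transcript were found in 5 members (Rpl24, Rpl35, Rpl13a, Rpl23a and Rpl5), and the strand setting of the counting is not given.

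The start sites of the members that the comparisons below turn on are shown because the TOP tract begins at the first transcribed base. The sequences are from RefSeq, build GRCm38.p6, each with 25 bases before the annotated start and 20 from it, on the strand of the gene, and capitals mark a C at the start with the pyrimidines that follow it, where there are at least 4. Rps27 (chr3:90213629-90213673, minus strand), Rps15a (chr7:118116128-118116172, minus), Rps6 (chr4:86857348-86857392, minus) and Rpl15 (chr14:18270967-18271011, minus) have such a tract at the annotated start. Rpl31 (chr1:39367826-39367870, plus), Rpl22 (chr4:152325701-152325745, plus), Rps2 (chr17:24720038-24720082, plus), Rpl10a (chr17:28328540-28328584, plus) and Rpl3l (chr17:24727801-24727845, plus) have no such tract at that base.
Rps27: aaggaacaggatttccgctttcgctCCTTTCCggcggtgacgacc
Rps15a: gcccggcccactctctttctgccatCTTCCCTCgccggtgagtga
Rps6: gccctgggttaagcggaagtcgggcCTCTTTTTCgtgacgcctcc
Rpl15: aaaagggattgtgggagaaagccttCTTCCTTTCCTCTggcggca
Rpl31: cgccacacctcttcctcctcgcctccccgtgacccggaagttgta
Rpl22: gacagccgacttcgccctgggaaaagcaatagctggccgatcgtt
Rps2: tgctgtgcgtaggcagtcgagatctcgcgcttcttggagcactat
Rpl10a: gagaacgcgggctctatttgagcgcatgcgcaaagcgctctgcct
Rpl3l: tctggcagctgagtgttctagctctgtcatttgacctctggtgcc

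Start regions of 61 members were matched by symbol. A C followed by at least 4 pyrimidines lay exactly at an annotated start in 13 of the 61 (21.3%), against 813 of 27025 genes (3.01%). Within 10 bases of a start, on the gene's strand, it lay in 38 members (62.3%), against 34.4% of all genes. The search covers only these letters at annotated starts, and an annotated start can lie some bases from the one used in the cell.

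The comparison of regions asked whether the members differ in level between the 6 brain regions. Each region was set against the mean of the other 5, with the mouse as a block, in 17501 genes. Members were mostly higher in the NAc and CPu and mostly lower in the vHipp and VTA. In the NAc, 72 of the 79 tested members were higher at an adjusted p under 0.05 (edgeR quasi-likelihood test, Benjamini-Hochberg), while 39.9% of all genes were. Only Rpl22 and Rps15a were lower there, against 37.2% of all genes. In the CPu, 61 were higher and 4 lower, against 42.5% and 39.9% of all genes. In the vHipp, 67 were lower and 1, Rpl22, was higher, against 36.6% and 37.9%. In the VTA, 46 were lower and 9 higher, against 45.6% and 40.3%. In the PFC, 31 were lower and 4 higher, against 40.0% and 34.2%, and in the BLA 11 were lower and 9 higher, against 35.3% and 34.3%. The PFC share of lower members was near that of all genes.

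The shifts were small. The median log2 fold change of the members was 0.22 in the NAc, 0.16 in the CPu, 0.01 in the BLA, -0.05 in the PFC, -0.11 in the VTA and -0.19 in the vHipp, where the median of all genes lay between -0.04 and 0.01. A member's highest and lowest regional values lay a median of 0.48 apart on the log2 scale. The NAc held the highest value for 55 of the 79 members, and the vHipp (42 members) or the VTA (28 members) held the lowest for most. For 57 members the NAc and CPu were both called higher and the vHipp lower. How many of all genes share this pattern, or these highest and lowest regions, was not counted. Scaling by total counts moved the median of all genes in the CPu by -0.10, and the CPu split between higher and lower members then was 29 to 12. The BLA split under the same scaling was 23 to 7, where the median of all genes moved by 0.05. The share of all genes called under that scaling was not counted.

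**Figure D1:**
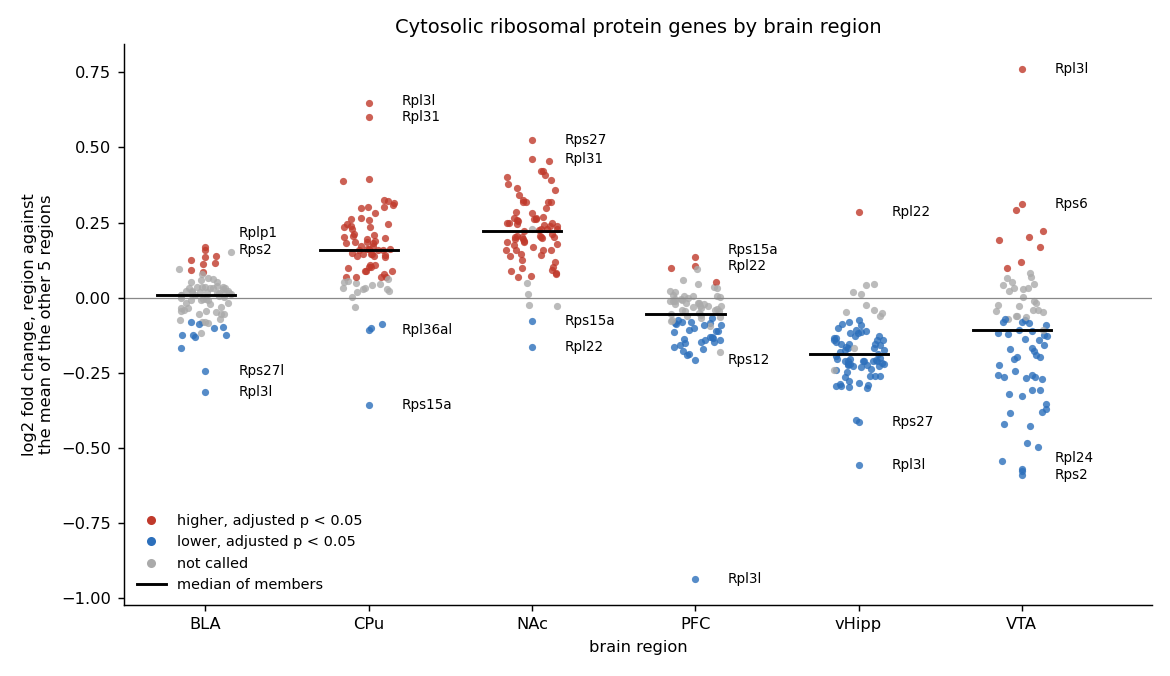
Log2 fold change of each of the 79 tested members in each region against the mean of the other 5 regions. Each point is a gene, coloured by its call, black lines are medians, and the members with the largest changes per region are named; the NAc and CPu medians lie above 0 (0.22 and 0.16) and the vHipp median lies below it (-0.19).

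Rpl31, a protein of the rim of the peptide exit tunnel, showed the widest regional span of any member measured at over 1 CPM. It ran from 163.8 to 293.5 CPM in the CPu (median 202.6) and from 148.8 to 363.5 in the NAc (median 189.9). In the VTA it ran from 99.4 to 158.6 (median 117.9) and in the vHipp from 77.01 to 162.8 (median 121). Every CPu library lay above every VTA and every vHipp library, while NAc libraries overlapped both. The log2 fold change was 0.60 ± 0.03 (SE, n = 42 libraries) in the CPu with an adjusted p of 2.04e-44 by edgeR, and -0.43 ± 0.04 in the VTA (n = 31).

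Rps27, a zinc finger protein of the small subunit, had a median of 100.6 CPM in the NAc (77.8 to 222.1), 94.9 in the CPu (65.8 to 132.1) and 75.9 in the BLA (38.8 to 178.1). The PFC, VTA and vHipp had medians of 69.3, 61.2 and 59.9 CPM. The ranges of all regions overlapped. The log2 fold change was 0.53 ± 0.05 in the NAc (adjusted p = 2.32e-22, edgeR) and -0.42 ± 0.05 in the vHipp (adjusted p = 2.86e-14). Rps12, another small subunit gene, was the most reduced member of the PFC after Rpl3l, with 106.8 to 172.1 CPM (median 131.3) and a log2 fold change of -0.21 ± 0.03.

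Rps2, a small subunit protein near the messenger RNA entry site, had its lowest median in the VTA. The 31 VTA libraries ran from 104.2 to 145.5 CPM with a median of 114.7. The NAc ran from 154.9 to 310.1 (median 184.3), the BLA from 131.4 to 316.4 (median 174.9) and the CPu from 140 to 240.2 (median 173.4). No VTA library reached the lowest NAc library. The VTA overlapped the CPu, the BLA, the PFC (lowest library 123.1) and the vHipp (lowest library 118.8). The VTA value was -0.59 ± 0.04 on the log2 scale with an adjusted p of 4.78e-35 by edgeR. Rplp1 was also low in the VTA, with 248.6 to 363.3 CPM against 383.9 to 953 in the NAc, which do not overlap. It was called lower in the PFC and vHipp too, and its lowest library of all, at 225.2 CPM, was not of the VTA. In the BLA, Rplp1 (0.17 ± 0.04) and Rps2 (0.16 ± 0.03) were the members with the largest increases, where Rps27l had -0.25 ± 0.05.

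**Figure D2:**
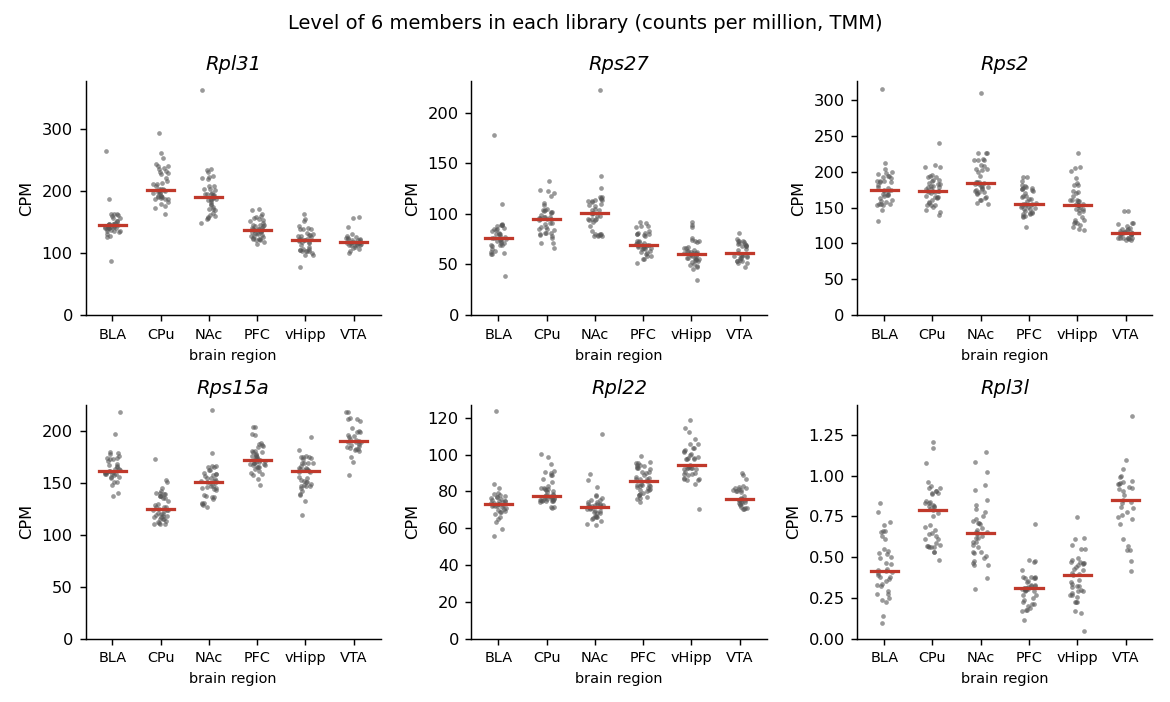
Level in CPM of 6 members in each of the 230 libraries, by region, with the median as a red line. Rpl31 and Rps27 have their highest medians in the CPu and NAc, and Rps2 its lowest in the VTA (114.7). Rps15a and Rpl22 follow other orders, and Rpl3l has its highest median in the VTA.

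Several members did not follow the common order in every region. Rps15a, a small subunit protein, was lowest in the CPu, with 110.3 to 172.9 CPM (median 124.5), and highest in the VTA, with 158.1 to 218.3 (median 190.1). Its log2 fold change was -0.36 ± 0.02 in the CPu (adjusted p = 7.33e-35, edgeR) and 0.29 ± 0.03 in the VTA, and the ranges of these regions overlapped. Rpl22, an RNA-binding large subunit protein that mice can live without, was highest in the vHipp at 70.6 to 118.9 CPM (median 94.2) and had its lowest median, 71.8, in the NAc. It was the member called higher in the vHipp, by 0.29 ± 0.02 with an adjusted p of 2.26e-25 by edgeR. The annotated paralog Rpl22l1, which is not a member, went the other way, with -0.25 ± 0.05 in the vHipp and 0.22 ± 0.04 in the NAc. Rps6, the substrate of the S6 kinases, was highest in the VTA at 116.5 to 149.9 CPM (median 128.4), a log2 fold change of 0.31 ± 0.03. It had medians of 90.6 to 106.3 in the other regions. Rps6 was also called higher in the CPu and NAc and lower in the BLA, PFC and vHipp, so it left the common order in the VTA.

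Rpl3l, the muscle form of Rpl3, spanned the largest range of log2 values of the 79 members, at low counts. Its medians were 0.853 CPM in the VTA (0.413 to 1.37), 0.793 in the CPu (0.481 to 1.21), 0.651 in the NAc (0.307 to 1.14), 0.418 in the BLA (0.0981 to 0.831), 0.391 in the vHipp (0.0449 to 0.747) and 0.310 in the PFC (0.116 to 0.706). The log2 fold change was 0.76 ± 0.08 in the VTA (adjusted p = 5.26e-18, edgeR) and -0.94 ± 0.09 in the PFC (adjusted p = 7.97e-21). No library held more than 36 reads of it. Rpl36al, a paralog of Rpl36a, was -0.11 ± 0.04 in the CPu and 0.22 ± 0.04 in the VTA, and Rps27l was 0.20 ± 0.05 in the VTA. Rpl24 was called lower in the VTA (-0.58 ± 0.11), at a median of 0.27 CPM and no more than 21 reads in any library, under the overlap given above.

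Genes that work with the ribosome were compared from fixed lists, which were chosen with earlier results of these data known. Rack1, a scaffold on the small subunit, was 0.20 ± 0.03 in the NAc, and Fau, which encodes a small subunit protein fused to a ubiquitin-like part, was -0.23 ± 0.04 in the vHipp. Of 14 genes of elongation factors and other TOP messenger RNAs, 10 were higher and 2 lower in the NAc, and 9 lower and 3 higher in the vHipp. Eef1a1, the main elongation factor 1A, was 0.29 ± 0.02 in the NAc, while Eef1a2, its form in mature neurons, was -0.18 ± 0.02. In the VTA, Eef2, which moves the ribosome along, was 0.53 ± 0.02 and Pabpc1, the poly(A)-binding protein, -0.60 ± 0.03.

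Of 76 tested mitochondrial ribosomal protein genes, 22 were higher and 23 lower in the NAc (median 0.01), 28 lower and 15 higher in the vHipp (median -0.02), and 46 higher and 15 lower in the VTA (median 0.12). Of 49 initiation factor genes, 12 were higher and 26 lower in the NAc. Of 28 ribosome biogenesis genes, 13 were higher and 3 lower in the NAc, 14 higher and 6 lower in the vHipp, and 3 higher and 16 lower in the VTA. Of 13 genes of the mTOR pathway, 4 were higher and 6 lower in the NAc. The list counts here and in the preceding paragraph stand beside 39.9% higher and 37.2% lower among all genes in the NAc. In the vHipp these shares were 37.9% and 36.6%, and in the VTA 40.3% and 45.6%. The share of mitochondrial ribosomal protein genes lower in the vHipp was near that of all genes.

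The regions also differ in their cells. In bulk tissue, fewer cells of a type and less RNA per cell cannot be told apart. Of 10 neuron markers, 7 were lower and 2 higher in the NAc, with summed levels of 4760 to 6654 CPM there and 6139 to 9881 in the vHipp. Of 8 astrocyte markers, 7 were lower and 1 higher in the NAc (2125 to 4067 CPM in sum), 6 lower and 1 higher in the CPu (2360 to 4084), and 7 higher and none lower in the vHipp (3001 to 5598). Of 9 microglia markers, 9 were higher in the NAc (360 to 540 CPM in sum) and in the CPu (371 to 571), and 9 were lower in the vHipp (269 to 551) and 8 in the VTA (270.9 to 534.8). Of 9 oligodendrocyte markers, 9 were higher in the VTA (12950 to 19910 CPM) and 9 in the CPu (4383 to 9942). In the vHipp (872 to 5405) and the BLA (2739 to 8197) 9 were lower. The neuron list had 8 lower and 2 higher in the CPu (5206 to 6218). In the VTA the astrocyte list had 5 higher and 2 lower (2114 to 3297). The 9 endothelial and pericyte markers had 8 higher and 1 lower in the CPu, and 7 lower and 0 higher in the NAc. No marker of these lists was at 0 in any library of these regions. Among 809 other protein-coding genes with a main transcript under 1 kb, the median log2 fold change was 0.01 in the NAc, 0.05 in the CPu, -0.05 in the vHipp and 0.06 in the VTA. The part of cell makeup in the regional differences was not tested.

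The mean of log2 CPM over the 77 members gave 1 value per library. It averaged 7.04 ± 0.20 (SD, n = 39) in the NAc, 6.98 ± 0.15 (n = 42) in the CPu, 6.90 ± 0.21 (n = 38) in the BLA, 6.85 ± 0.12 (n = 41) in the PFC, 6.81 ± 0.10 (n = 31) in the VTA and 6.76 ± 0.16 (n = 39) in the vHipp. The members together took 0.741% to 2.21% of all counts of a library. In all but 4 libraries the mean lay between -0.28 and 0.37 from the mean of its region. The 4 lay over 0.5 away: BLA-115 (CC) at 0.95, NAc-014 (CS) at 0.86, Cpu-011 (SS) at 0.51 and BLA-143 (SS) at -0.68. In the first pair all 77 members were above their regional means, in Cpu-011 76 were, and in BLA-143 none was.

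**Figure D3:**
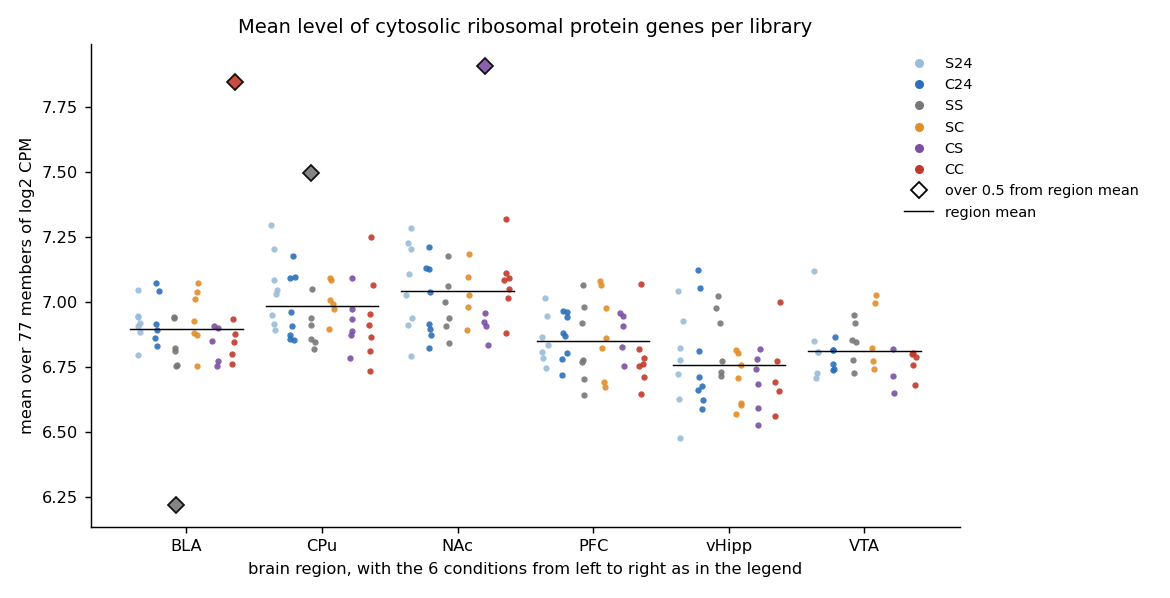
Mean log2 CPM over 77 members in each of the 230 libraries, by region and, within a region, by condition; lines are regional means and diamonds mark the 4 libraries over 0.5 from them. The diamonds lie at 7.85 and 6.22 in the BLA, 7.5 in the CPu and 7.91 in the NAc.

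The other libraries of the same mice lay within -0.23 to 0.24 of their regions. The mouse of NAc-014 lay at 0.86 there and at -0.20 in the CPu, -0.23 in the vHipp, -0.12 in the BLA and 0.11 in the PFC. That of BLA-115 lay between -0.09 and 0.24 in its other 5 regions. Other short genes moved with the members. In BLA-115 the median of the 809 other genes under 1 kb lay at 0.75 and that of 4199 genes over 4 kb at -0.43. In NAc-014 these were 0.63 and -0.35, in Cpu-011 they were 0.43 and -0.25, and in BLA-143 they were -0.32 and 0.04. All other libraries ranged from -0.18 to 0.28 for the short genes and from -0.22 to 0.15 for the long ones. The mitochondrial ribosomal protein genes lay at 0.68, 0.57, 0.36 and -0.32 in the same 4 libraries, against -0.22 to 0.27 in the others. The summed level of 5 blood markers was 259 CPM in BLA-115 and 299 in NAc-014, inside the 2.95 to 533 and 3.01 to 529 of their regions, with no marker at 0. The medians of the other libraries there were 59.92 and 77.65 CPM. All 5 markers lay above their regional means in both, by a mean of 1.825 and 1.544 (log2). BLA-115 was among the libraries that stood apart in blood markers. In BLA-143 (16.62 CPM, mean -1.715) and Cpu-011 (64.88 CPM, mean -0.61), 0 of the 5 lay above.

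Sums of other cell type markers left the range of the region's other libraries. The sum of 8 astrocyte markers was 2737 CPM in BLA-115 (3176 or more in the others), 2360 in Cpu-011 (2492 or more) and 2125 in NAc-014 (2355 or more). That of 4 markers of oligodendrocyte precursors was 123.6 in BLA-115 (185.5 or more) and 123.7 in NAc-014 (133 or more). That of 9 microglia markers was 608.8 in BLA-115 and 329.8 in BLA-143, against 339.4 to 575.7 in the others. No marker of these 3 lists was at 0. The markers of a list did not always move alike. Of the 8 astrocyte markers, 4 lay above their regional means in BLA-115, 4 in Cpu-011 and 2 in NAc-014. The mean log2 difference of that list from the region was 0.045, -0.138 and -0.272 there. Of the 4 precursor markers, 1 lay above in BLA-115 and 1 in NAc-014. Of the 9 microglia markers, 6 lay above in BLA-115 and 0 in BLA-143. The part of transcript length, blood and other cell types in these shifts was not tested.

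**Figure D4:**
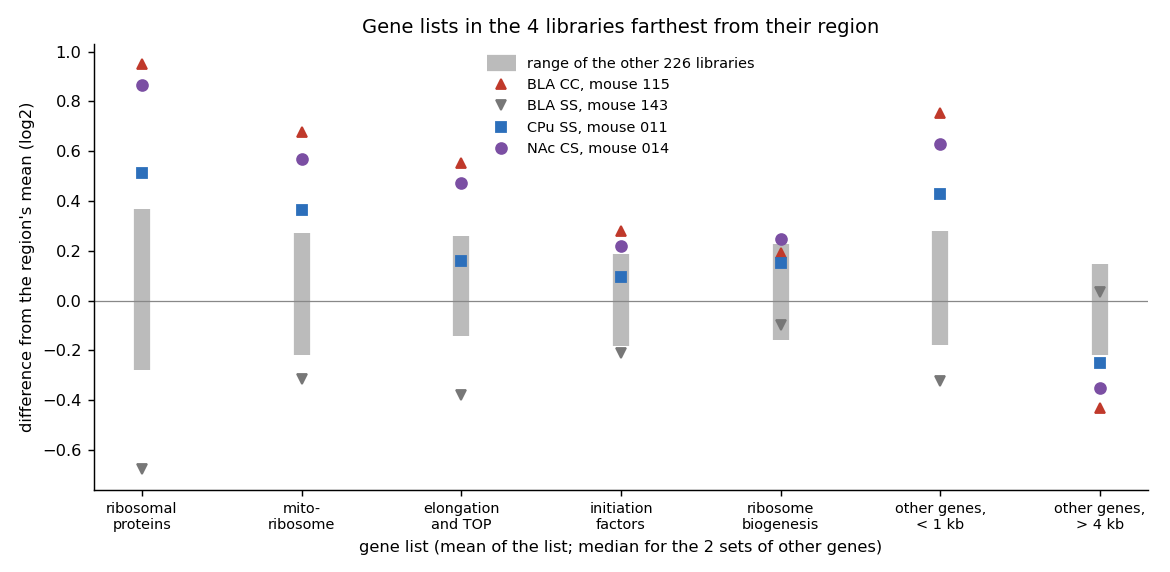
Difference from the region's mean (log2) of the mean of each gene list, and of the median of other genes by length, in the 4 libraries farthest from their region; grey bars are the range of all other libraries. In BLA-115 the members lie at 0.95, short other genes at 0.75 and long ones at -0.43.

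Members varied together from library to library. After the condition means were taken out, the median correlation between pairs of the 77 members across the libraries of a region was 0.85 in the NAc, 0.83 in the BLA, 0.78 in the CPu, 0.69 in the PFC, 0.64 in the vHipp and 0.59 in the VTA. Over all pairs of 14695 genes the median lay between 0 and 0.01. Without the 4 libraries the medians of the BLA, CPu and NAc were 0.50, 0.70 and 0.71. These values are descriptions: the pairs share libraries, and with them depth and length effects. Rpl23a followed the others least, with a mean correlation of 0.17 over the regions (-0.07 to 0.33), ahead of Rps24 at 0.36 and Rpl15 at 0.42. Rpl37a, Rpl32 and Rpl26 followed them most, each at 0.77. Without the 4 libraries Rpl23a had 0.09, Rps24 0.18 and Rpl15 0.23, and in the BLA Rps24 and Rpl15 (-0.03 each) then lay below Rpl23a (-0.02).

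The conditions were compared over the 6 regions together, with the mouse as a random block, in 18927 genes (limma). Among the members, 1 call was made in 6 comparisons: Rpl10a was lower in SC than in SS. C24 against S24, CS against SS, CC against CS, CC against SS and the interaction, the difference between the effects of a cocaine injection after cocaine and after saline, had none. Of all genes, 0.0687% were called lower in SC than in SS, and in the other comparisons 0.845%, 0.0581%, 0%, 0.0317% and 0.0423% were called in either direction. At an unadjusted p under 0.05 the limma fit had 5 of 474 member tests, against 5.22% of all tests, and the fit to 1 mean per mouse had 6 with no call after adjustment. The medians of the members lay between -0.03 and 0.03. In no comparison did the members' effects differ between regions after adjustment (limma F test). Of all genes 0.0159% did, and at an unadjusted p under 0.05 there were 29 of 474 member tests, against 4.48% of all. Of the 29, 17 were in CC against SS, where 3.20% of all genes passed, and the rest were 6 in SC against SS, 4 in CS against SS and 2 in the interaction. Without the 4 libraries CC against SS had 4, against 2.97% of all genes, while SC against SS had 13, against 7.62%, and the interaction 12, against 9.33%. The libraries removed were picked by the members' own mean, and members vary together, so all genes are no like background for these counts.

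The members nearest to a call differed little. Rpl36al, closest in C24 against S24, had medians of 22.97 CPM in C24 (16.5 to 28.04, 44 libraries) and 23.13 in S24 (19.03 to 34.3, 43 libraries), a log2 fold change of -0.09 ± 0.05 with an adjusted p of 0.607 by limma. Rpl15, a large subunit protein, was closest in CS against SS (0.07 ± 0.04, adjusted p = 0.963, limma) and in CC against SS (0.08 ± 0.03, adjusted p = 0.609). Its medians were 93.97 CPM in SS, 95.82 in CS and 97.47 in CC, and the ranges overlapped. Rpsa, the laminin receptor protein of the small subunit, was closest in CC against CS (0.07 ± 0.05, adjusted p of 1 by limma).

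Rpl10a, a large subunit protein found on only part of ribosomes in some cells, had medians of 84.21 CPM in S24, 80.61 in C24, 78.24 in SS, 75.98 in CS and 76.96 in CC, and of 66.83 in SC. The 37 SC libraries ran from 48 to 93.96 CPM and the 39 SS libraries from 58.85 to 116.8, so the groups overlapped. The log2 fold change of SC against SS was -0.21 ± 0.05, negative in 6 of 6 regions, with an adjusted p of 0.0225 by limma. The interaction was 0.27 ± 0.07, with an adjusted p of 0.216. Of its 50-base stretches, 62.4% occurred in 5 other genes, all pseudogenes.

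The Rpl10a difference lay in a set of libraries that also differed in other genes. The predicted gene Gm20594 was over 1 CPM in 21 libraries, 19 of SC and 2 of CS. They were all 16 libraries of 4 SC mice, those of BLA-043, BLA-083, BLA-144 and VTA-113, and 1 of the 5 libraries of each of 5 other mice. In the 19 SC libraries Rpl10a ran from 48 to 70.4 CPM (median 60.4), and in the 18 other SC libraries from 49.9 to 93.96 (median 78.5), near the SS median of 78.24. Without the 21 libraries the log2 fold change of SC against SS was -0.04, with an adjusted p of 0.957 by limma. Leaving out any 1 of these 4 mice, or the SS mouse of PFC-011, PFC-035 or PFC-094, also ended the limma call, with adjusted p from 0.057 to 0.254 and log2 fold changes from -0.20 to -0.16. It ended too with 1 mean per mouse (-0.22, adjusted p = 0.067). What else these libraries share was not tested.

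**Figure D5:**
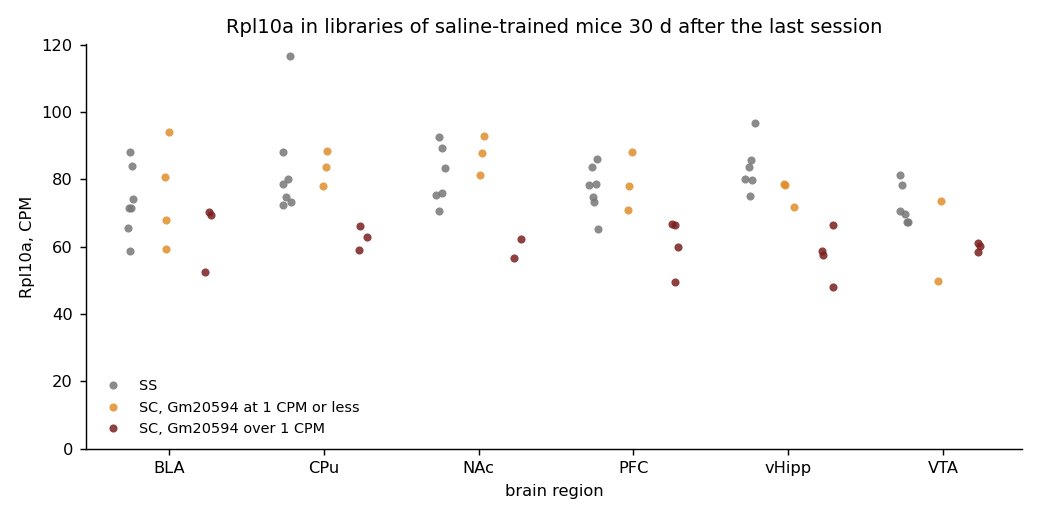
Rpl10a in CPM in each SS and SC library by region, with the SC libraries split by the level of Gm20594. SC libraries with Gm20594 over 1 CPM lie between 48 and 70.4, and the other SC libraries between 49.9 and 93.96, over most of the SS range.

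Within SC, most other members differed little between the libraries with and without Gm20594. The median difference over 77 members was 0.03 (log2), the lowest was that of Rpl10a at -0.33, and none passed 1. Over 14695 genes the median was 0.009, 10 passed 1 and 121 lay under -0.3, against 1 member under -0.3. Rpl23a differed by more than Rpl10a, in the other direction, and had the highest value at 0.68, with 7.90 to 25.3 CPM (median 12.7) in the 19 libraries and 2.92 to 15.1 (median 8.43) in the 18, and Rps27l had 0.30. All 3 kept their sign in 6 of 6 regions. Of 187 ribosomal protein pseudogenes with a mean of at least 0.05 CPM, 15 were lower by over 0.5 and 2 higher. How many of all genes at such low levels differed by over 0.5 was not counted, so this count has no background here.

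In single regions, the 6 comparisons were run in each of the 6 regions, and no member was called in any of the 36 (edgeR, smallest adjusted p = 0.246 for Rpl29 in the vHipp). DESeq2 and limma voom made no call either. Of all genes, 0.000983% of the tests were called. At an unadjusted p under 0.05, 168 of 2838 member tests passed with edgeR, 181 with DESeq2 and 134 with limma voom, against 3.93% of all edgeR tests.

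The unadjusted values gathered in a few comparisons. In the BLA, 63 of 79 members were higher in CC than in SS at an unadjusted p under 0.05 (median log2 fold change 0.30), against 4.17% of all genes, and 12 were higher in CC than in CS, against 2.27%. BLA-115 is a CC library and enters both comparisons, while BLA-143 is an SS library and enters only the first. They were removed together, so the part of each was not tested. Without the 4 libraries over 0.5 from their region, none passed in either comparison and the medians were 0.00 and -0.01. The same removal, of NAc-014 in that region, gave 23 members higher in CC than in CS in the NAc (median 0.19), against 2.19% of all genes, where all libraries gave none (median -0.07). In the BLA it gave 11 members higher in SC than in SS, against 4.72% of all genes, where all libraries gave 2. No member was called after adjustment under that removal. The libraries removed were chosen by the members' own mean, so the members' counts move with that choice. All genes are therefore no like background after the removal. Members also vary together within a region, so such counts are not separate results.

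In the vHipp, none of those 4 libraries was involved. There 22 members were lower in SC than in SS (median -0.19, against 4.79% of all genes), 16 were lower in CS than in SS (median -0.19, against 7.42%) and 10 in CC than in SS (median -0.09, against 3.11%). These comparisons and the interaction share the 6 SS libraries. The interaction had 23 members higher (median 0.25, against 6.02%), and the smallest adjusted p was 0.39 for Rpl13 by edgeR. Members varied together across the vHipp libraries (median correlation 0.64, against 0 over all genes). These counts are therefore not that many separate results, and the shares of all genes are no like background for them.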

How the data were processed

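The authors deposited 1 table of read counts per gene for 230 libraries. Per the labels' protocols, ribosomal RNA was depleted and libraries were made with ScriptSeq Complete Gold, while the labels' molecule field gives polyA RNA. The submitters' processing notes name HTSeq, limma and mm10. The aligner, and the strand and multiple-match settings, are not given in the sources used here. Library totals of 11866570 to 42135683 counts set the precision.

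From these counts, regions were compared with edgeR 4.0.16 (quasi-likelihood, mouse as a block), conditions over the 6 regions with limma 3.58.1 voom (mouse as a random block, consensus correlation 0.04) and conditions within a region with edgeR, in R 4.3.3. Factors were TMM, the filter was filterByExpr (minimum count 10, total 15), the prior count 2 and the threshold an adjusted p of 0.05 (Benjamini-Hochberg over all genes tested). Standard errors of edgeR fold changes are approximate, derived from the fold change and its F statistic. The fits were tested on simulated data. DESeq2 1.42.0 and other settings were alternatives.

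The number in a title was taken as the mouse. Over genes above 1 CPM, deviations from group means were correlated between pairs of libraries. In 486 same-number pairs the median correlation was 0.09, and it was over 0.1 in 225 of them. In 3228 pairs of other numbers the median was -0.01, and it was over 0.1 in 629 of them. The members, lists and rules were chosen with earlier results of these data known. Genes named were the 2 called members highest and the 2 lowest per region, the called or nearest member per condition comparison, Rpl10a and the paralogs, the 3 highest and 3 lowest by level, and any changed over 2-fold with Gm20594, which none was. Rpl23a, Rps24, Rpl37a, Rpl32, Rpl26, Rpl29, Rpl13 and genes of other lists or overlaps were named after their values were seen. The counts over a list of other ribosomal genes are not reported here. The removal of the 4 libraries farthest from their region was chosen after seeing the data, by the members' own mean.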

Additional observations from a re-analysis of the deposited data

Results flagged for a closer look

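In 6 of 35 groups of 4 to 10 libraries, 1 library's mean log2 CPM over the 77 members lay far from the others by Dixon's test at its 95% level, which chance alone gives in about 1 in 20 groups. In SS of the BLA, BLA-143 had 6.22 and the other libraries 6.75 to 6.94. In CC of the BLA, BLA-115 had 7.85 and the others 6.76 to 6.93. In SS of the CPu, Cpu-011 had 7.5 and the others 6.82 to 7.05. In CS of the NAc, NAc-014 had 7.91 and the others 6.83 to 6.96. In CC of the PFC, PFC-053 had 7.07 and the others 6.65 to 6.82. In S24 of the VTA, VTA-191 had 7.12 and the others 6.71 to 6.85. The last pair lay under 0.5 from the mean of their region.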

How the results depend on the processing

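The members' median kept its sign under every alternative in the NAc (0.18 to 0.24), CPu (0.05 to 0.17), PFC (-0.06 to -0.05), VTA (-0.12 to -0.07) and vHipp (-0.20 to -0.16), but not in the BLA (-0.03 to 0.05). With total counts only, 23 members were higher and 7 lower in the BLA, and 29 and 12 in the CPu. Without libraries that stand apart in total, choroid or blood markers, 4 were higher and 19 lower in the BLA and 15 higher in the VTA. Without the 4 libraries over 0.5 from their region, 17 were lower in the BLA and 16 higher in the VTA. With 24 h libraries only, 5 were higher in the BLA, 2 lower in the CPu, 19 lower in the PFC and 2 higher in the vHipp, and with 30 d libraries only, 3 were higher in the BLA, 1 lower in the NAc and 2 higher in the PFC. Both subsets hold fewer libraries. The cause of the other shifts was not tested. For none of these settings was the share of all genes called counted, so the member counts have no background here.

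Without the mouse as a replicate block, higher and lower members numbered 11 and 11 in the BLA, 58 and 4 in the CPu, 71 and 2 in the NAc, 4 and 31 in the PFC, 1 and 67 in the vHipp and 9 and 46 in the VTA. The shares of all genes were not counted for this setting. For Rpl10a over 6 regions, SC against SS, the limma fit without the block gave -0.20 (adjusted p = 0.00828).

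The count of members called in SC against SS was 0 without libraries holding Gm20594, 0 with 1 mean per mouse, and 0 to 1 when each mouse was left out. With sample quality weights 1 member was called in the interaction by limma (Rpl10a over 6 regions, interaction 0.28, adjusted p = 0.00282). In single regions no alternative gave a call.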
